A study of Mus musculus with 6 samples.

Results

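Hotspot bins were stretches of 1 kb of the mouse genome whose transcripts carried a high average level of N6-methyladenosine (m6A), the methyl mark on adenosines inside RNA. Positions with an m6A value on chromosomes 1 to 19 were grouped into 1000-base bins. A bin was a hotspot when it held 10 or more positions and their mean level over the 3 MTH-WT samples was 25% or more. This gave 1768 hotspot bins with 28960 positions, out of 19274 bins with 10 or more positions (called dense bins here) and 567664 distinct positions in all. Hotspots made up 9.17% of the dense bins and 5.26% of the positions on these chromosomes. The MTH-WT values therefore chose the members, and the high MTH-WT level of a hotspot is a description and not a finding. The MTH-D values had no part in the choice. A level is the percentage of m6A at a position, and the level of a bin is the mean over its positions.

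The cells were HCICs, the HCC-initiating cells, kept as primary culture from livers of male mice given the carcinogen DEN. MTH-D cells carried a Mthfd1l knockout made with lentiviral CRISPR, and MTH-WT cells (Mthfd1l wildtype) received the empty vector. The study's methods select both as single cell colonies, and the labels do not say which colony or line a sample came from. Poly(A) RNA of 3 MTH-WT and 3 MTH-D samples, numbered 1 to 3 in each group, was read directly in nanopores, with 1000 ng of total RNA and a flow cell of its own for each sample, and all 6 are labelled as batch 1. The lines came from control (CTL) and from double knock-in (DKI) livers, in which 2 routes of p53 activation are impaired, and the labels do not say which number belongs to which line. The study's text describes only a small deletion in the knockout line HCIC-2 and names HCIC-1 and HCIC-3 for its m6A sequencing, whereas the labels hold 3 samples in each group. Which line gave which sample, and whether every sample is a line of its own, is therefore not known here. The level of Mthfd1l itself, the targeted gene, was not analysed here, since the table holds m6A levels and no expression. No coverage came with the values, so the number of reads behind each level is unknown and no interval was computed. Same-numbered samples resembled each other across bins, and the difference within a number is called a pair.

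m6A is placed on nascent transcripts by the METTL3 and METTL14 methyltransferase, which takes its methyl group from S-adenosylmethionine and acts on adenosines in the motif DRACH (D is A, G or T, R is A or G, H is A, C or T). The mark is known to gather in long internal exons and around stop codons, and reader proteins of the YTH family bind it and set the fate of the transcript. MTHFD1L is the mitochondrial enzyme that releases formate for the one-carbon pool, and that pool feeds the methionine cycle that makes S-adenosylmethionine. The comparison of MTH-D with MTH-WT cells asks whether the mark depends on this supply.

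Gene names and sequences could be given for a small set of the hotspots. The positions are numbered in GRCm39, and the annotation at hand (GENCODE M21) is of GRCm38. In 37 of the 1768 hotspots at least 90% of the positions fell, without any shift, on adenosines of exonic DRACH motifs of that annotation. In 1729 hotspots under 20% did so, and 2 lay between. The 37 bins lay at the start of chromosome 4 (29 bins), chromosome 18 (6), chromosome 6 (1) and chromosome 9 (1), and belonged to 32 genes. The other 364 dense bins with the same coincidence serve as their comparison. No position was converted, and the remaining hotspots are given by GRCm39 coordinates alone. Longer sequence is not printed, since no sequence of GRCm39 was used.

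The 4 pentamers with the highest mean level and the 4 with the lowest show how unlike the adenosines of a hotspot were on average. They are written 5′ to 3′ on the transcript strand as DNA letters, with the methylated adenosine in the third place, and each is followed by its number of positions in the 37 named hotspots and its mean MTH-D level there.
GGACT: 49 positions, mean level 74.6%
AGACT: 45 positions, mean level 60.9%
GAACT: 48 positions, mean level 55.3%
GGACA: 47 positions, mean level 46.8%
TGACC: 33 positions, mean level 2.24%
AAACC: 23 positions, mean level 1.90%
TAACA: 12 positions, mean level 1.75%
TAACC: 9 positions, mean level 1.55%

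The mean level thus ranged from nearly unmethylated to mostly methylated with the pentamer, while single positions of a pentamer could lie far from its mean. In the Klf4 bin a GAACT stood at 0.307% and a GGACC at 79.9%. The mean also went with the last base of the motif. Positions ending in T averaged 50.5% in MTH-D, those ending in A 21.6% and those ending in C 10.99%. The GAC core, with G before the adenosine, averaged 35.7% and the AAC core 20.8%.

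The named hotspots held more of the strong motifs than the other named dense bins, and each motif stood higher in them. GGACT made up 8.69% of their 564 positions with a pentamer and 4.89% of the 5788 in the other bins, and the GAC core 61.0% and 48.4%. All 18 pentamers had a higher mean MTH-D level in hotspots than elsewhere, GGACT 74.6% against 27.2% and AGACT 60.9% against 15.8%. If each hotspot position had taken the mean level of its pentamer in the other bins, the hotspots would have averaged 9.21%, where 29.9% was measured and the other bins had 7.20%. Bins chosen for a high MTH-WT level are also high in MTH-D, so the higher level of each pentamer comes with the choice and is no separate finding. The rule did not use the motifs, but in the other bins the level also went with the pentamer (GGACT 27.2%, TAACC 0.759%). A choice by level therefore also favours bins rich in strong motifs, and the make-up of motifs is a description too.

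The placement of the named hotspots along their transcripts differed from that of the other named dense bins in count. Of the 37 bins, 23 (62.2%) held positions on both sides of the stop codon, against 24.5% of the 364 others. A further 10 (27.0%) lay wholly in coding sequence, against 15.4%. Only 1 (2.70%) lay wholly in the 3′UTR, where 57.4% of the other bins lay. By position, 60.4% of the 568 hotspot positions were coding and 35.2% in the 3′UTR, and 24.8% and 73.8% of the others were. All 37 lay in protein-coding transcripts. The median exon length over the positions of a bin was 471 bases or longer in all 37. Over bins it had a median of 2350 bases, against 2643 bases for the others. Bins were classed by this median exon length. No hotspot was among the 14 named dense bins in exons under 200 bases or the 9 in exons of 200 up to 400 bases. In exons of 400 up to 1000 bases 7 of the 44 bins (15.9%) were hotspots. The share was 11.6% of the 164 bins in exons of 1000 up to 3000 bases and 6.47% of the 170 in longer exons. Among hotspot positions mean MTH-D levels were 29.9% in coding sequence and 30.5% in the 3′UTR, while the 25 positions in 5′UTRs averaged 20.8%. The rule asks for a high mean in every hotspot, so close levels by place come largely with the choice. In the other named dense bins the means were 12.7%, 5.41% and 4.84%, in the same order.

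The gene with the highest named hotspot was Fzd8, a Frizzled receptor for Wnt ligands. Its bin chr18:9214001-9215000, at the end of the coding sequence, had levels of 42.8%, 47.5% and 43.8% in MTH-WT 1 to 3 and of 42.4%, 47.2% and 42.9% in MTH-D 1 to 3. The groups overlapped, and in both the sample numbered 2 was the highest. A second Fzd8 bin, chr18:9212001-9213000, held 17 of its 18 positions in the 5′UTR and went from 26.6% ± 2.36 to 24.5% ± 4.08 (SD, n = 3).

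Inip, which encodes a subunit of the single-stranded DNA-binding complex SOSS, followed closely. Its bin chr4:59772001-59773000 lay on the minus strand across the stop codon, with levels of 42.4%, 46.2% and 42.6% in MTH-WT and 45.3%, 48.1% and 42.1% in MTH-D. Of its 16 positions 9 were at 50% or more in MTH-D and 6 under 10%. The position with the highest level was a GGACT 292 bases past the last coding base, at 94.8% in MTH-WT and 95.7% in MTH-D. A GGACC 188 bases past the last coding base stood at 0.343% and 2.89%.

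Pdp1, the catalytic subunit of the phosphatase that activates pyruvate dehydrogenase, had a hotspot wholly in coding sequence. The bin chr4:11961001-11962000 held 21 positions with a mean of 37.9%, 40.1% and 37.5% in MTH-WT and 36.1%, 41.3% and 36.4% in MTH-D. It held nearly saturated sites, since 3 AGACT adenosines stood at 97.8% to 98.4% and a GGACT at 96.9% in MTH-D. In the same stretch a TGACA stood at 79.8% and an AGACC at 27.8%.

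Klf4, a zinc-finger factor of stem cell programs, was the only gene of the 121 in the gene lists to fall in a named hotspot. The lists held genes of the study, the m6A machinery, one-carbon metabolism, growth, cytokine signalling and MHC-I. They also held KLF and EMT factors, chromatin regulators and nuclear long noncoding RNAs, and cell markers were listed apart. Only 3 of those 121 genes lay in any named dense bin, so the lists say nothing about the rest. The Klf4 bin chr4:55530001-55531000 held 18 coding positions, with levels of 26.9%, 26.3% and 25.1% in MTH-WT and 25.3%, 27.1% and 23.0% in MTH-D. Its 2 strongest adenosines were a GGACT at position 55530155, with 84.7% in MTH-WT and 79.98% in MTH-D, and a GGACC at 55530493, with 86.3% and 79.9%. None of the 27 marker genes for liver and other cell types lay in a named dense bin, so the labelled cell type could not be checked with these data.

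A pair of hotspots each was found in 5 of the 32 genes, and no gene had more. Besides Fzd8 these were Rbm12b2, an RNA-binding protein, Invs, which encodes the ciliary protein inversin, and the zinc-finger genes Zfp189 and Zfp438. The Rbm12b2 bins stood at 26.8% and 36.6% in MTH-WT and at 27.7% and 36.6% in MTH-D. The Invs bins moved in opposite directions, from 30.3% to 32.8% in the coding bin and from 28.4% to 26.7% in the bin across the stop. Both Zfp189 bins and both Zfp438 bins had lower MTH-D values in all 3 pairs, with mean differences of -1.98 to -3.46 points and overlapping groups.

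**Figure D1:**
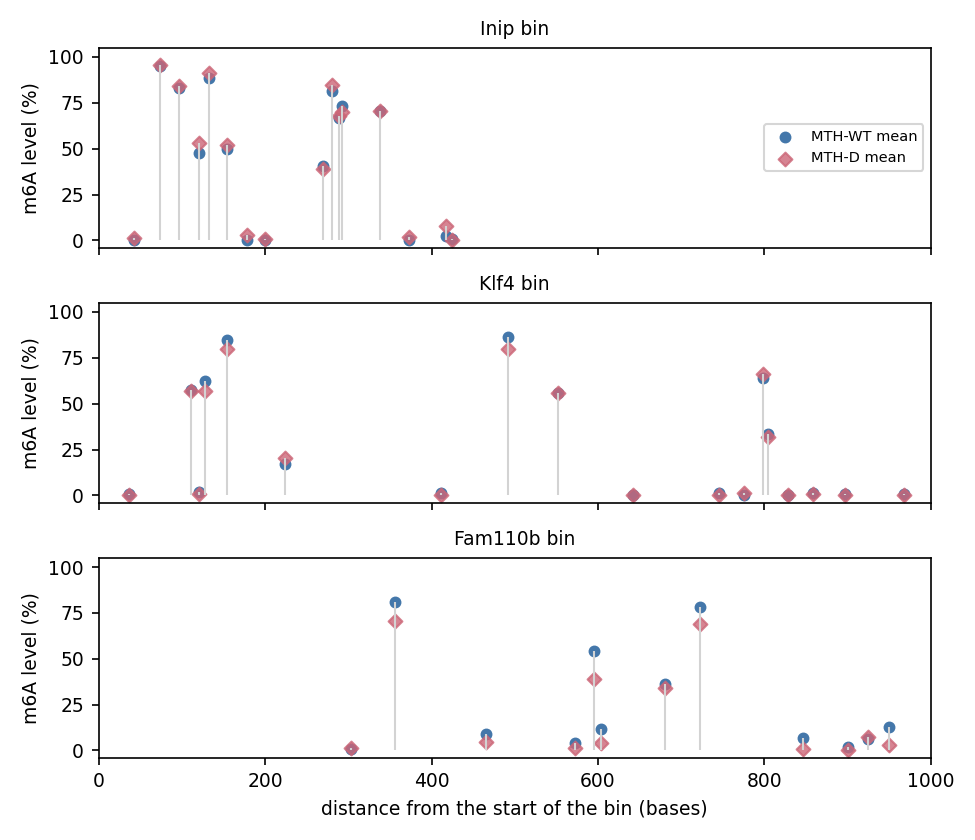
Level of each m6A position in the Inip, Klf4 and Fam110b hotspot bins by distance from the start of the bin in bases, with circles for the MTH-WT mean and diamonds for the MTH-D mean of 3 samples and grey lines as guides. Positions at 50% or more stand between positions near 0 in all 3 bins. In Fam110b most diamonds lie below their circles.

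The mixture seen in these bins held for the hotspots as a whole. In MTH-D samples 44.3% of the 28960 hotspot positions were under 10%, while 27.9% were at 50% or more and carried 71.4% of the summed level. In the other dense bins 83.6% of positions were under 10% and 4.08% at 50% or more. A hotspot had a median of 4 positions at 50% or more (range 0 to 13), and 90.9% of hotspots had 3 or more, as did 8.65% of the other dense bins. Bins chosen for a high MTH-WT level are also high in MTH-D, so these contrasts with the other dense bins come largely with the choice. The highest position of a hotspot had a median MTH-D level of 94.8%, and the SD over the positions of a bin had a median of 33.3 points. A hotspot was thus a handful of strong sites among weak ones and not a stretch of evenly raised positions.

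**Figure D2:**
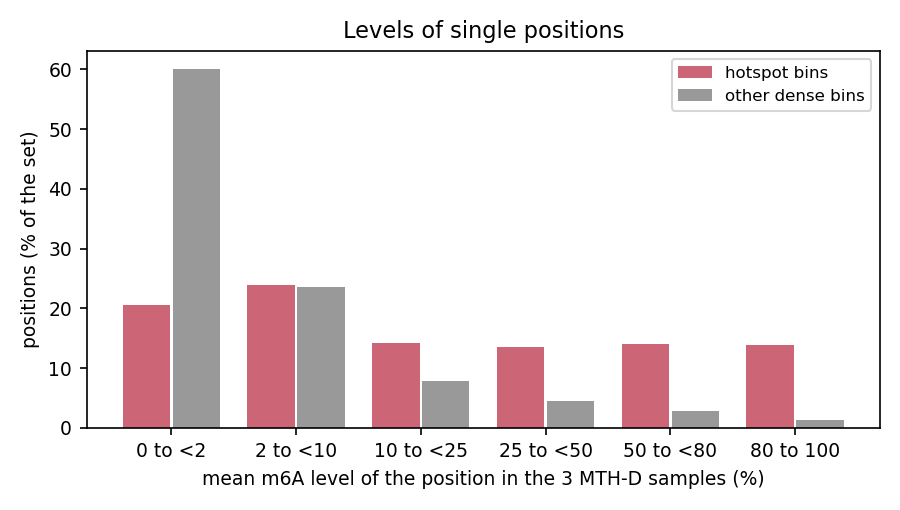
Share of positions, in percent of each set, by the mean level of the position in the 3 MTH-D samples in percent, for hotspot bins (28960 positions, red) and other dense bins (285710 positions, grey). The class of 80 to 100% holds 13.9% of hotspot positions and 1.35% of the others, and the class under 2% holds 20.5% and 60.1%. The sets were split by their MTH-WT level, so the contrast comes largely with the choice.

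With all hotspots pooled, strong positions had strong neighbours slightly more often in 3 of 4 distance classes. Of positions 1 to 10 bases from a neighbour at 50% or more, 29.4% were at 50% or more themselves, against 25.1% of those beside a neighbour under 50%. The shares were 28.2% and 28.5% at 11 to 30 bases, 30.6% and 28.7% at 31 to 100 bases, and 30.8% and 27.2% at larger distances. These shares pool positions of many bins with different mean levels and carry no test. Taken as deviations from the bin mean, the levels of neighbours hardly correlated. Pearson's r was 0.034, -0.014, 0.015 and 0.016 in the 4 classes, from the nearest to the farthest. Positions were 33 bases apart at the median in hotspots and 31 bases apart in the other dense bins, so spacing was close to alike.

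Among dense bins, high levels reached about 1 kb beyond a hotspot. Dense bins directly beside a hotspot had a median MTH-D level of 14.9% (1427 flanks), against 3.55% beside the other dense bins. At 2 kb (696 dense flanks of hotspots) the medians were 4.82% and 3.51%, and at 3 kb (372 dense flanks) 3.28% and 3.88%. Of the dense bins directly beside a hotspot 22.1% were hotspots themselves, against 7.05% beside other dense bins. Most hotspots stood alone all the same, with 1462 single bins, 138 runs of 2 bins and 10 runs of 3 bins, the longest. Only 40.4% of the 3536 bins directly beside a hotspot were dense, and 45.0% beside other dense bins. The rest could not be hotspots at any level, so standing alone partly comes with the rule. Bins that share a transcript share its reads, so flanks and runs are not independent of the hotspot.

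**Figure D3:**
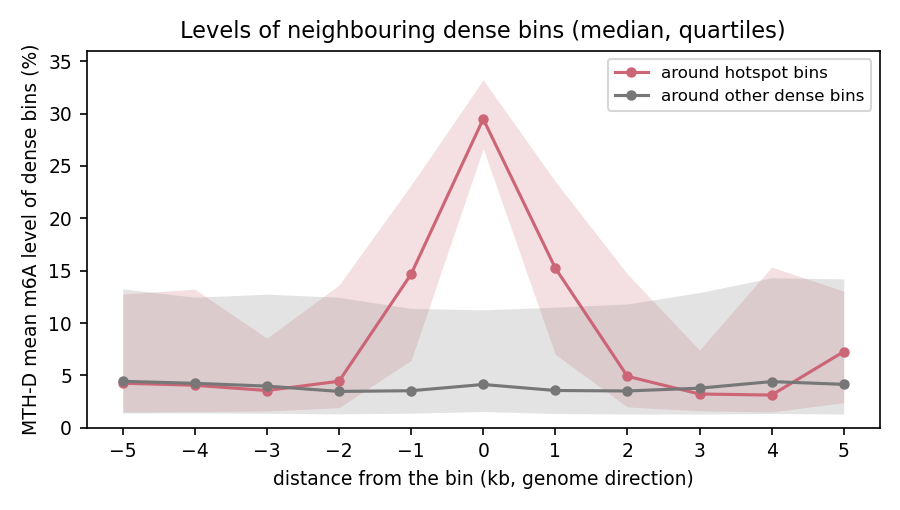
MTH-D mean level in percent of dense bins by distance from the bin in kb, with the median as points and the quartiles as a band, around 1768 hotspots (red) and 17506 other dense bins (grey). The red median falls from 29.5% at distance 0 to 14.7% and 15.3% at 1 kb on either side and lies within the grey band from 2 kb on.

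The hotspot with the highest level was chr19:5619001-5620000, which held 13 positions. Its levels were 60.2%, 58.2% and 57.0% in MTH-WT and 55.0%, 64.0% and 52.7% in MTH-D, and the groups overlapped. In MTH-D 8 of its 13 positions were at 50% or more. The other 9 of the 10 highest, with MTH-WT means from 55.3% down to 52.0%, were chr6:119457001-119458000, chr9:14268001-14269000, chr3:37697001-37698000, chr18:59543001-59544000, chr9:22159001-22160000, chr7:80040001-80041000, chr8:36614001-36615000, chr7:92306001-92307000 and chr7:18870001-18871000. Their MTH-D means were between 50.4% and 55.5%, with 2 of the 9 above their MTH-WT mean. The densest hotspot was chr5:138455001-138456000, with 34 positions at 27.7% ± 1.03 in MTH-WT and 27.6% ± 2.27 in MTH-D (SD, n = 3). The next 4 by number were chr15:27732001-27733000 and chr17:7223001-7224000 with 33 positions each and chr1:159905001-159906000 and chr4:94938001-94939000 with 31 each, and their MTH-D means lay between 25.2% and 35.3%.

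The 3 members closest to it were chr3:85579001-85580000, chr4:106519001-106520000 and chr8:96370001-96371000, all at 25.01% in MTH-WT and at 25.03%, 24.8% and 23.3% in MTH-D. Just outside lay chr6:92166001-92167000, chr2:28577001-28578000 and chr3:116376001-116377000, all between 24.99% and 24.9967% in MTH-WT, with MTH-D means of 27.6%, 25.98% and 24.0%. In the first of these the 3 MTH-D samples, at 27.7%, 28.006% and 26.98%, lay above all 3 MTH-WT samples.

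Hotspots were spread over all 19 chromosomes, from 6.27% of the dense bins of chromosome 6 to 12.1% of those of chromosome 7. Their share rose only slightly with the number of positions, from 8.81% of dense bins with 10 to 14 positions to 10.4% of those with 25 to 29, and was 3.85% of the 338 bins with 30 or more.

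Between the groups, the mean over hotspot positions was 30.5%, 32.6% and 30.1% in MTH-WT 1 to 3 and 29.3%, 33.4% and 28.7% in MTH-D 1 to 3. The samples numbered 2 were the highest of their group, and the groups overlapped. The group means were 31.1% ± 1.37 and 30.5% ± 2.53 (SD, n = 3), a difference of -0.61 points. On the same bins it was 0.173 points without MTH-WT 2 and 0.26 points without MTH-D 3, so its direction rested on single samples. In pairs 1 and 3 the MTH-D sample was lower, by -1.23 and -1.33 points, and in pair 2 it was higher by 0.73 points. The other dense bins moved the same way in each pair with smaller steps, -0.330, 0.279 and -0.223 points, around means of 7.37% in MTH-WT and 7.28% in MTH-D. The ratio of the hotspot mean to that of the other dense bins was between 4.04 and 4.32 in the 6 samples, lowest in both samples numbered 2.

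**Figure D4:**
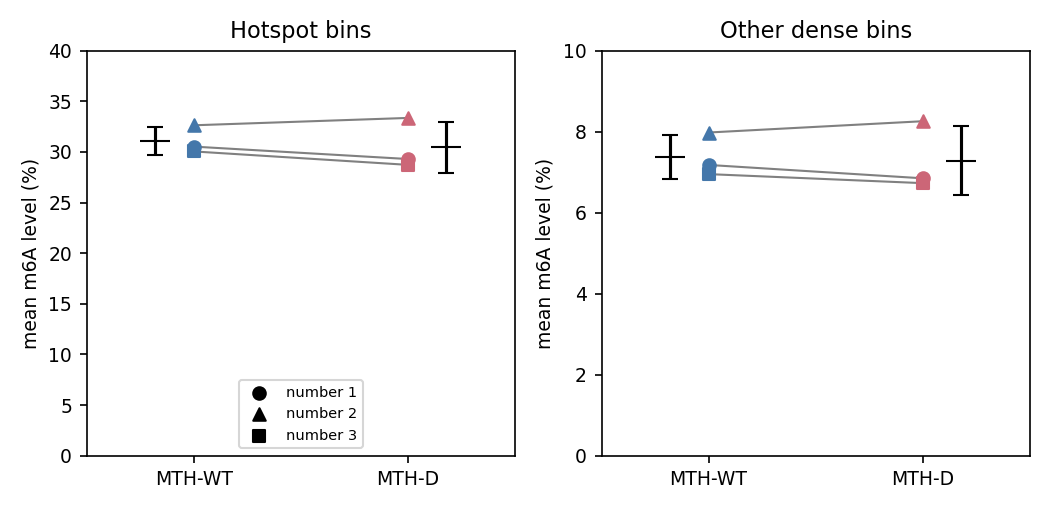
Mean level in percent over hotspot positions (left) and positions of other dense bins (right, with its own axis) in each sample, with a symbol for each sample number, lines joining same-numbered samples and bars for the group mean and SD (n = 3). Both samples numbered 2 are the highest, and their line rises from 32.6% to 33.4% in hotspots while the other lines fall.

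Because the rule chose bins that were high in MTH-WT, part of any fall in MTH-D can come from the choice itself. It was therefore measured again with bins chosen in each case from the other 2 MTH-WT samples. The held-out differences were -1.14 points in pair 1 (1853 bins), 0.852 points in pair 2 (1605 bins) and -1.24 points in pair 3 (1881 bins). Their mean was -0.511 points with an SD of 1.18, lower in 2 of 3 pairs, and did not pass the two-sided exact sign-flip test (p = 0.5, the smallest p that 3 pairs allow being 0.25). Since the labels tie no sample to a line or culture, p-values here measure only the spread between these samples, which may be technical.

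Within each pair the direction was the same on every chromosome. Over their hotspot positions, pairs 1 and 3 were lower in MTH-D on 19 of 19 chromosomes and pair 2 was higher on 19 of 19. Each pair sets 1 sample against 1 other, so the chromosomes are not replicates. The bins were also chosen with the same MTH-WT samples. The size followed the level of the position. In pair 3 positions averaging 30 to 50% over all 6 samples differed by -3.19 points, those of 50 to 70% by -3.15 points, and those under 10% and of 90% or more by -0.187 and -0.501 points. In pair 2 the rise was 1.93 points at 50 to 70% and 0.310 points at 90% or more. Levels near 0 or 100% leave little room for a difference in points, so the small values at both ends do not show stability.

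Bin by bin the order of the hotspots hardly differed between the groups. Over the 1768 bins Pearson's r was 0.970 between the group means, 0.924 to 0.926 between same-numbered samples and 0.856 to 0.916 between samples of a group, as a description over bins that share transcripts and libraries. The MTH-D sample was lower in 74.5% of the hotspots in pair 1, in 34.0% in pair 2 and in 76.6% in pair 3, where over all dense bins the shares were 64.8%, 38.7% and 57.4%. Over the group means MTH-D was lower in 70% of the hotspots and in 55.6% of all dense bins. Of all hotspots 1008 (57.0%) had an MTH-D mean within 1 point of their MTH-WT mean, 11 (0.622%) were lower by 5 points or more, as were 0.0882% of all dense bins, and 1 (0.0566%) was higher by 5 points or more, as were 0.0104% of all dense bins. The other dense bins had a median MTH-WT level of 4.21%, under the 5 points asked of a fall. In the MTH-D mean 59 of the other dense bins (0.337%) were at 25% or more, and 8.71% of all dense bins, hotspots included, were. Of the hotspots 1619 (91.6%) still were. This count was 1420 in MTH-D 1, 1744 in MTH-D 2 and 1331 in MTH-D 3, and 1236 hotspots (69.9%) were at 25% or more in each of the 3. The 149 that fell under the line had a median MTH-WT mean of 25.7%, just above the rule. Of the 872 hotspots at 30% or more in MTH-WT, 871 stayed at 25% or more in MTH-D.

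**Figure D5:**
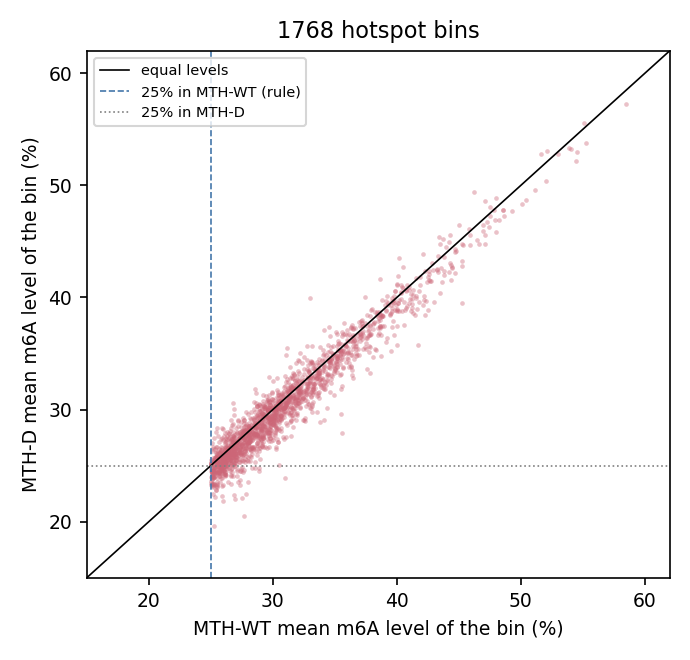
MTH-D mean level against MTH-WT mean level of each of the 1768 hotspot bins in percent (means of 3 samples), with the line of equal levels, the 25% line of the rule (dashed) and 25% in MTH-D (dotted). The points follow the line of equal levels from 25% to 58.5%, and 149 lie under the dotted line.

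No single hotspot passed the test across all bins. Bin levels were tested as log2 odds in limma, and 0 of 19274 dense bins (0%) had a Benjamini-Hochberg adjusted p under 0.05. At an unadjusted p under 0.05 there were 387 bins (2.01%), and 8 of the 1768 hotspots (0.452%) were among them. In limma on percent without the log transform there were 242 bins (1.26%) and 33 hotspots (1.87%), so the order of the shares depended on the scale. With the sample number as a block, on log2 odds again, 0 were called as well. At an unadjusted p under 0.05 there were then 926 bins (4.80%) and 29 hotspots (1.64%). Over the 567664 positions limma also called 0, with 18299 (3.22%) at an unadjusted p under 0.05, among them 1157 of the 28960 hotspot positions (3.995%). With 3 samples in a group and adjustment over all positions, only very large differences at single positions could have been called. The count of 0 positions therefore does not show that levels stayed the same. In the named hotspots the standard error of the log2 odds difference was between 0.135 and 0.193, so small differences could not be told from 0 in single bins.

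The largest differences are given as a description, since the rule used the MTH-WT values. The 3 MTH-D samples lay below all 3 MTH-WT samples in 32 hotspots (1.81%) and above them in 4 (0.226%), where over all dense bins 2.20% lay below and 2.23% above. MTH-D was lower in all 3 pairs in 353 hotspots (19.97%), against 14.7% of all dense bins, and higher in 89 (5.03%), against 10.2%. Among the hotspots lower in all 3 pairs and with groups that did not overlap, the widest fall was in chr6:146993001-146994000, with levels of 37.9%, 35.8% and 33.2% in MTH-WT and 32.7%, 30.4% and 20.7% in MTH-D, where MTH-D 3 stood apart. Next among them came chr4:132455001-132456000, from 41.7% ± 0.259 to 35.8% ± 5.19 (SD, n = 3), and chr5:138644001-138645000, from 35.5% ± 1.18 to 29.6% ± 4.70. The following of these falls, between -5.73 and -4.06 points, were in chr10:42072001-42073000, the Fam110b bin, chr13:67896001-67897000, chr2:91476001-91477000, chr4:148143001-148144000, chr17:21247001-21248000 and chr13:81817001-81818000.

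Fam110b was the only named hotspot whose groups did not overlap. Its bin chr4:5798001-5799000, across the start of the coding sequence, had levels of 24.7%, 27.0% and 24.0% in MTH-WT and 18.3%, 21.97% and 18.5% in MTH-D, a difference of -5.64 points. The fall was spread over several of its 12 positions. A GAACT in the 5′UTR at 5798357 went from 88.2%, 87.5% and 66.7% in MTH-WT to 72.7%, 75% and 64.6% in MTH-D, with overlapping groups. An AGACT in the coding sequence at 5798596 went from a mean of 54.1% to 39.1%, and a GAACA at 5798951 from 12.8% to 2.78%. In limma the bin had a log2 odds difference of -0.46 ± 0.153 (SE), an unadjusted p of 0.0132 and an adjusted p of 0.99997, so it did not pass the test.

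The 4 hotspots whose MTH-D samples all lay above the MTH-WT samples were led by chr5:142871001-142872000. Its levels were 35.4%, 31.5% and 32.0% in MTH-WT and 38.4%, 41.5% and 39.9% in MTH-D, a difference of 6.96 points (limma, adjusted p of 0.99997). The others were chr11:83333001-83334000, part of a run of 3 hotspots, at 40.2% and 43.5%, chr17:80741001-80742000 at 25.5% and 28.3%, and chr7:24003001-24004000 at 26.0% and 28.3%.

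The 37 named hotspots followed the whole set. The MTH-D mean was lower in 28 and higher in 9, and 9 were lower and 3 higher in all 3 pairs. The named bins with the smallest change included the Rbm12b2 bin at the end of its coding sequence, with a difference of -0.006 points, and Impad1, a Golgi phosphatase, with 0.0852 points. C1galt1, the enzyme that extends O-glycans on glycoproteins, had a hotspot on chromosome 6 at 36.6%, 36.02% and 35.3% in MTH-WT and 36.2%, 37.9% and 37.2% in MTH-D, where the groups overlapped.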

How the data were processed

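For 6 samples the authors deposited the m6A fraction of each position (0 to 1, 4 decimals) in 1 table. The submitters' processing notes name GRCm39, minimap2 2.26 and SAMtools. The basecaller, the modification model and the coverage filter are not given in the sources used here. Fractions were multiplied to percent, 3 rows that repeat a position were averaged, and positions were binned by 1000 bases. Coordinates are printed counted from 1.

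The test for bins and for positions was limma (version 3.58.1, R 4.3.3) with Benjamini-Hochberg adjustment, run on log2 odds after adding 1 point to either share. The script was tested on simulated data. Held-out pairs were tested by an exact sign-flip test. Samples were paired by number, which the labels do not state. Deviations from the group means correlated within each number (0.390, 0.572 and 0.415 over dense bins), and the study calls the cells paired. Over single hotspot positions these correlations were lower (0.150, 0.246 and 0.129). In the samples numbered 2, 2.17% (MTH-WT) and 2.06% (MTH-D) of hotspot positions stood at exactly 100%. In the other samples 0.628% to 1.11% did. Whether the likeness within a number is technical was not tested. The fit without the block came first.

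The hotspots and gene lists were chosen with earlier results of these data known. Named are the 10 highest bins, the 5 with most positions, the 5 genes with most bins, up to 10 falls and rises with all pairs one way and groups apart, 3 bins on either side of the threshold, and bins in listed genes. Inip, Pdp1, C1galt1 and Impad1 and the single positions were chosen after their values were seen.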

Additional observations from a re-analysis of the deposited data

How the results depend on the processing

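The hotspot difference of -0.61 points depended on single samples. Leaving out each of the 6 samples gave -2.06 points (without MTH-D 2) to 0.26 points (without MTH-D 3), and without MTH-WT 2, with the bins chosen anew from the MTH-WT samples left, the direction also turned, to 0.0837 points. With the bins kept as they were, an alternative added after seeing the data, the value was 0.173 points without MTH-WT 2, -0.88 without MTH-WT 1 and -1.12 without MTH-WT 3. The other 11 alternatives kept the direction, with values from -1.35 points (samples numbered 1 and 3) to -0.434 points, the latter with bins chosen from the MTH-D samples, an alternative added after seeing the data. Among these 11, the replicate block could not differ and gave -0.608 points. The mean of the pair differences equals the difference of the group means. Leaving out the repeated positions also gave -0.608 points. The held-out difference stayed below 0 in 8 of 8 alternatives, from -1.19 to -0.145 points, with p from 0.5 to 1 in the sign-flip test. These alternatives draw on the same 3 pairs and are not independent. The set of pairs 1 and 3 is counted again as the set without pair 2. Where 2 pairs are left, the test allows no p under 0.5. With bins of 1 or more positions limma called 9 bins, 0 of them hotspots, and the 12 other alternatives for bins and 9 for positions called 0, the block included. The count that stayed at the threshold was 2860 of 3045 at 20% (93.9%) and 761 of 872 at 30% (87.3%). Without coverage, how far depth limits single positions is unknown.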
